A study of Homo sapiens with 6 samples.

Results

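The ATF4 amino acid and tRNA charging programme was taken as 39 named genes of the integrated stress response, serine synthesis, amino acid transport and tRNA charging, and all 39 were found by symbol among the 28752 genes of the deposited table. The genes were followed in SH-SY5Y, an established human neuroblastoma cell line, 72 h after transfection with OE-circSHPRH (3 libraries) or OE-NC (3 libraries). SHPRH gives rise to the circular RNA circ-SHPRH. Neither OE nor NC is written out in the labels, and OE-NC serves below as the control. Every library came from this single cell line, and nothing in the labels says that replicates were separate cultures, so the p-values below measure the spread between these libraries, which may be technical.

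ATF4 is the transcription factor at the centre of the integrated stress response. When amino acids run short, when unfolded protein collects in the endoplasmic reticulum or when a virus is sensed, kinases phosphorylate the initiation factor eIF2, general translation slows, and the ATF4 mRNA is translated more through its upstream reading frames. ATF4 protein, often paired with a C/EBP partner, then switches on genes that import amino acids, make serine, asparagine and proline, and load amino acids onto tRNAs. Because ATF4 is set largely by translation, its mRNA level does not by itself report its activity. In neuroblastoma, genes of serine synthesis and glutamine import have been tied to growth driven by MYCN.

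ATF4 and C/EBP partners bind a composite element whose core is TGATGNAA. The sequences below are 6 promoter stretches that hold that core, chosen as examples from among the genes that have it, to show what the element looks like in an amino acid enzyme, a transporter, stress regulators and synthetases. They come from RefSeq windows of GRCh38.p14 that run from 250 bases before to 50 bases after each start site. The capitals mark the core, which reads TTNCATCA where it lies on the opposite strand, and each stretch is written along its gene.

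ASNS: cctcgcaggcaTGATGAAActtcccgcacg
CHAC1: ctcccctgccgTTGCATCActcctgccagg
CEBPG: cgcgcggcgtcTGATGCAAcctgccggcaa
SLC1A5: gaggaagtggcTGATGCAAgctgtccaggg
AARS: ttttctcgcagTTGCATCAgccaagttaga
GARS: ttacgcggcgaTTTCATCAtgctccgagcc

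These stretches lie at chr7:97872458-97872487 (minus strand) for ASNS, chr15:40953251-40953280 (plus) for CHAC1, chr19:33374060-33374089 (plus) for CEBPG, chr19:46784893-46784922 (minus) for SLC1A5, chr16:70289675-70289704 (minus) for AARS and chr7:30594834-30594863 (plus) for GARS. Counted to a RefSeq start site, the first base of the core is 33 bases before it in GARS, 42 in CEBPG and 68 in ASNS. It is 97 bases before in SLC1A5 (at one of its alternative starts), 187 in AARS and 209 in CHAC1. Except in AARS, the stretch lies inside the deposited span of the gene, so the start site used is not the outermost one. The core on either strand was present in the window of 1217 of 27305 genes in the RefSeq table (4.46%). Windows were matched to 31 of the 39 genes, or 79.5%, and since this is under 80% a share of the programme with the core would be void. Of the 31 windows matched, 13 held the core and 18, those of ATF4, TRIB3, CEBPB, PHGDH and SLC7A5 among them, did not. NUPR1, PSPH, SHMT2, ALDH1L2, PYCR1, SLC7A11, LARS and YARS had no entry.

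The libraries held 15645261 to 17591718 gene counts, so 1 count equals 0.0568 to 0.0639 CPM when counts are scaled to the library total alone. The CPM values given below are TMM-scaled, so 1 count differs slightly from this there. SHPRH was 2.91-fold higher in OE-circSHPRH (log2 fold change 1.54, SE 0.083), which matches the labels, although counts over the host gene do not separate the circular RNA from the linear mRNA or the construct. CDKN1A, also named in the series title, was at 0.43. Markers of sympathetic neuroblastoma (10 listed) were all detected, with a summed level of 4128 to 4296 CPM in OE-circSHPRH and 4136 to 4206 CPM in OE-NC. Single markers differed in both directions. DBH was 10.9% higher and CHGA 10.8% lower in OE-circSHPRH, each without overlap of the groups (edgeR adjusted p = 0.149 and 0.168). DESeq2 called DBH (adjusted p = 0.0407), where it called 1.19% of genes with an adjusted p. Of the 10 markers, edgeR called 0. At an unadjusted edgeR p under 0.05, 1 was lower and 2 were higher, where 5.02% of all genes were lower and 5.33% higher. Of 6 fibroblast genes, COL3A1 was at 465 and 466 CPM in OE-circSHPRH and OE-NC while COL1A2 was at 0.040 and 0.019 CPM, and the list summed to 766 to 792 CPM in OE-circSHPRH and 732 to 756 CPM in OE-NC. LUM, the gene for the matrix protein lumican, was 18.0% higher in OE-circSHPRH without overlap of the groups (153 ± 16.5 CPM in OE-circSHPRH and 130 ± 5.60 CPM in OE-NC, SD, n = 3 each, log2 fold change 0.24, adjusted p = 0.139 by edgeR). Of the 6, 5 were tested with a median log2 fold change of 0.10, 1 was higher and 0 were lower at an unadjusted p under 0.05, and edgeR called 0. The part of these genes in the results below was not tested. Of 6 blood and 5 epithelial genes listed, CD14, EPCAM and KRT18 were analysed here, and each averaged under 2 CPM in both groups. The share of counts on mitochondrially encoded genes was 10.2% to 10.3% in OE-circSHPRH replicate 3 and OE-NC replicates 1 and 2 (low-share libraries) and 11.4% to 12.1% in OE-circSHPRH replicates 1 and 2 and OE-NC replicate 3 (high-share libraries).

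All 39 genes were expressed and passed the filter on low counts. Per length, PSAT1, which encodes the aminotransferase of the serine pathway, stood highest at 275 FPKM over the 6 libraries (SD 8.14), and NUPR1, a small stress-induced chromatin protein, lowest at 3.38 FPKM (SD 0.352), an 81.2-fold span. The tRNA synthetase gene GARS (160 FPKM), ATF4 itself (149 FPKM), the leucine transporter gene SLC7A5 (135 FPKM) and the mitochondrial folate enzyme gene MTHFD2 (122 FPKM) followed PSAT1. The median of the 39 genes was 54.8 FPKM, against 4.53 FPKM for all genes tested. In the order of levels, the 6-library ranges of neighbouring genes overlapped in 26 of 38 pairs, so these ranges did not separate most neighbours. The ranges pool both groups, and genes were not compared within each library. PSAT1, GARS, ATF4 and SLC7A5 did not overlap the gene below them.

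**Figure D1:**
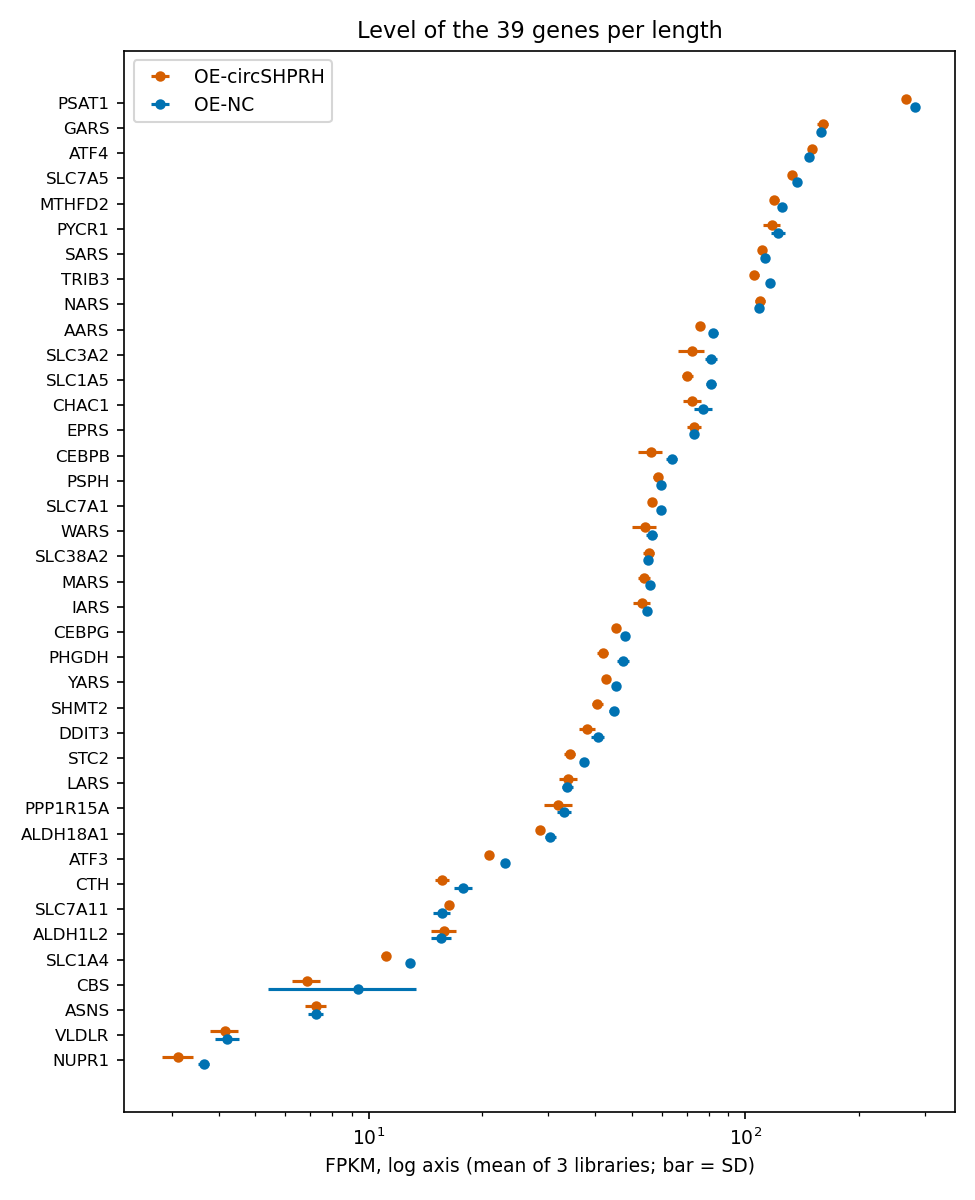
Level of each of the 39 genes in FPKM on a log axis, ordered by the mean over 6 libraries, with OE-circSHPRH in orange above OE-NC in blue (points are means of 3 libraries, bars are SD). PSAT1 is highest at 275 FPKM and NUPR1 lowest at 3.38 FPKM, and the wide bar belongs to CBS in OE-NC.

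ASNS, which encodes asparagine synthetase and is among the best known ATF4 targets, was low at 7.23 FPKM, rank 37 of 39. Its reads can be shared with a pseudogene: ASNSP1 held 387 to 494 counts per OE-circSHPRH library and 467 to 497 per OE-NC library, beside 505 to 577 for ASNS in OE-circSHPRH and 539 to 571 in OE-NC. In addition, 44.6% of the exonic bases of ASNS lie over AC079781.5 on the same strand, whose counts came to 6.27% of those of ASNS. The value of ASNS is therefore uncertain. The same holds for CBS and its near-identical copy CBSL, and for DDIT3, since 27.2% of its exonic bases lie over MARS on the opposite strand and no source used here says whether strand was used in counting.

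The comparison asked which of these mRNAs changed with OE-circSHPRH. No member passed the test over all genes, but most were slightly lower in OE-circSHPRH. Of the 39, 31 had a negative log2 fold change, and the median was -0.07, or 5.0% lower, against a median of 0.0018 over all genes tested. The amino acid transporter genes SLC1A5 and SLC1A4, the serine synthesis gene PHGDH and the stress regulators TRIB3 and CEBPB were 9.27% to 14.0% lower, and ATF4 mRNA itself was not among the lower genes. In bulk RNA, fewer cells expressing a gene and less of its RNA per cell cannot be told apart.

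With edgeR's quasi-likelihood test and Benjamini-Hochberg adjustment over 16458 genes, 0 of 39 members had an adjusted p under 0.05, where 0.188% of all genes did. At an unadjusted p under 0.05, 14 members were lower (35.9%) and 0 were higher, where 5.02% of all genes were lower and 5.33% higher. Among the 8604 genes at least as highly expressed as the lowest member, the share that was lower at that p was 6.1%, the share with a negative log2 fold change 48.8%, and the share with every OE-circSHPRH library below every OE-NC library 8.22%. In 18 members (46.2%) every OE-circSHPRH library lay below every OE-NC library, against 7.57% of all genes, and in 0 members every OE-circSHPRH library lay above, against 7.99%. A negative log2 fold change was found in 79.5% of members and 49.2% of all genes. Other tools called a few members, all of them lower in OE-circSHPRH. DESeq2 called SLC1A5, PHGDH and SLC1A4 (1.19% of the genes with an adjusted p). The authors' deposited table called the same genes, with adjusted p-values of 0.00208, 0.00769 and 0.0428 (0.254% of its genes have one under 0.05). Its log2 fold changes and unadjusted p-values for these genes were nearly the same as those of DESeq2, so it is not a separate result. Limma-voom called SLC1A5 (0.213% of genes). Without a filter on low counts edgeR called 5 members, these 3 with SLC3A2 and CBS (0.675% of genes). Without OE-NC replicate 2 the members lower at an unadjusted p under 0.05 numbered 7, the fewest in any fit.

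**Figure D2:**
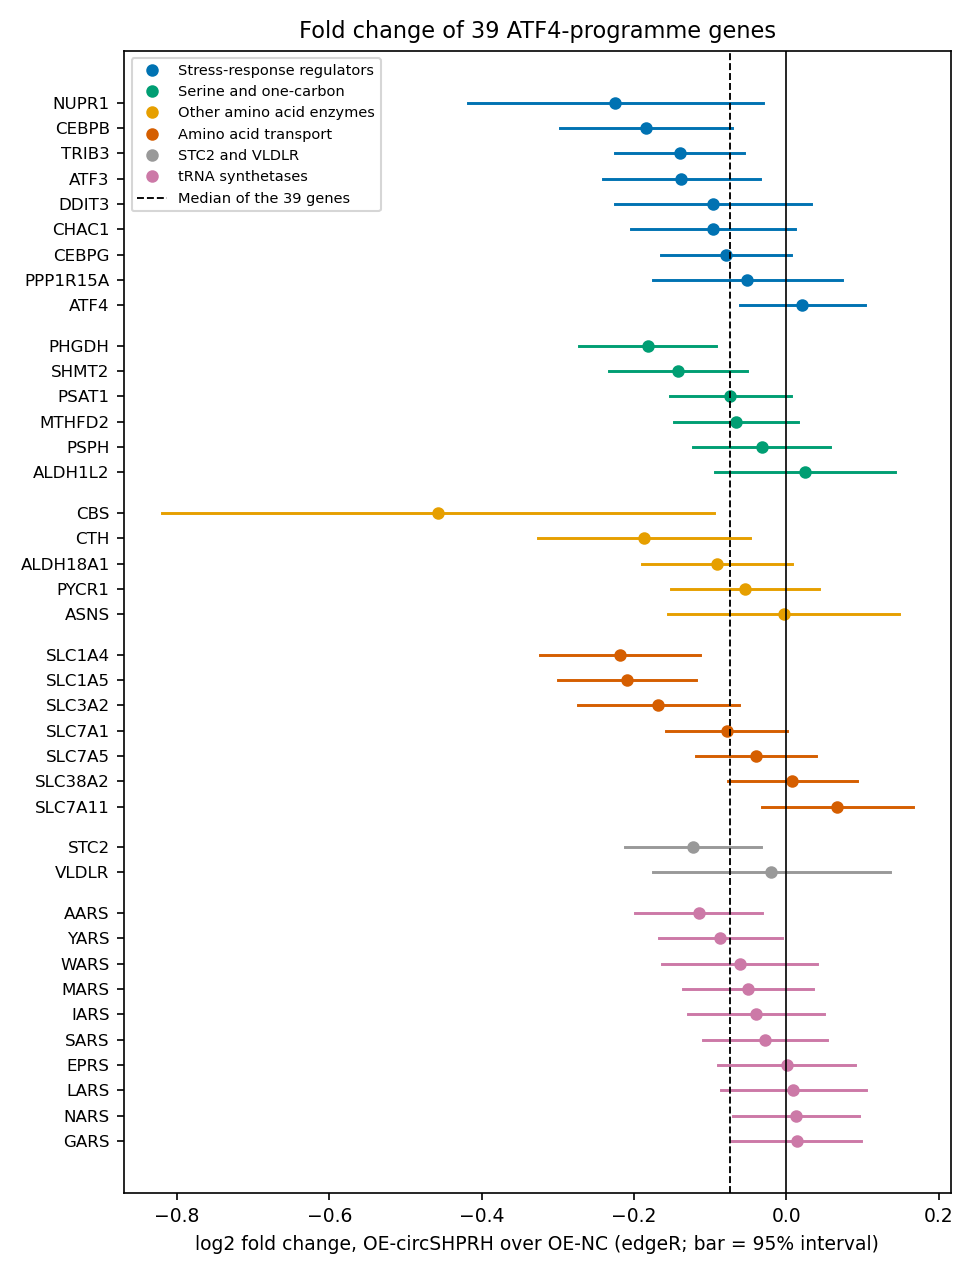
Log2 fold change of OE-circSHPRH over OE-NC for the 39 genes, grouped by role, with 95% intervals from edgeR (points are estimates from 3 libraries per group, the dashed line is the median of -0.07). Intervals of the transporters SLC1A4, SLC1A5 and SLC3A2, of PHGDH and SHMT2 and of 4 stress regulators lie below 0. So do those of CTH, CBS and STC2 and of the synthetases AARS and YARS, while ATF4, ASNS and GARS sit at or close to 0.

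Among the 9 stress-response regulators, ATF4 (chromosome 22, 39519695 to 39522685, plus strand, GRCh38) had 376, 389 and 379 CPM in OE-circSHPRH, against 369, 383 and 376 CPM in OE-NC. The groups overlapped, and the log2 fold change was 0.02 (95% interval -0.06 to 0.10, edgeR adjusted p = 0.907). The other 8 regulators had negative values, and 4 of them were lower at an unadjusted p under 0.05.

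TRIB3 encodes a pseudokinase that ATF4 induces and that feeds back on it. It had 358, 363 and 378 CPM in OE-circSHPRH, against 408, 412 and 392 CPM in OE-NC, with every OE-circSHPRH library below every OE-NC library. Its log2 fold change was -0.14 (SE 0.041, edgeR adjusted p = 0.183). CEBPB, which encodes a C/EBP factor that can pair with ATF4, had 102, 112 and 118 CPM in OE-circSHPRH and 127, 121 and 129 CPM in OE-NC. These groups did not overlap either, and the log2 fold change was -0.18 (SE 0.054, edgeR adjusted p = 0.186). ATF3, a stress-induced repressor of the same bZIP family, had 87.4, 84.8 and 83.9 CPM in OE-circSHPRH and 92.4, 96.7 and 92.7 CPM in OE-NC, again without overlap (log2 fold change -0.14, edgeR adjusted p = 0.307).

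DDIT3, which encodes the pro-apoptotic factor CHOP, had 51.7, 47.3 and 51.5 CPM in OE-circSHPRH and 51.4, 53.8 and 55.7 CPM in OE-NC. The groups overlapped and the log2 fold change was -0.10 (95% interval -0.22 to 0.03). CHAC1, which encodes an enzyme that degrades glutathione, had 143, 148 and 160 CPM in OE-circSHPRH and 162, 169 and 152 CPM in OE-NC, also with overlap (log2 fold change -0.10, SE 0.051, edgeR adjusted p = 0.542). NUPR1 had the lowest estimate of the group, -0.22 (SE 0.093), without overlap of the groups. CEBPG, another C/EBP partner, was at -0.08 (SE 0.041), and PPP1R15A, which encodes GADD34, the phosphatase subunit that switches the response off, was at -0.05 (SE 0.059). The median of the 9 was -0.10.

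**Figure D3:**
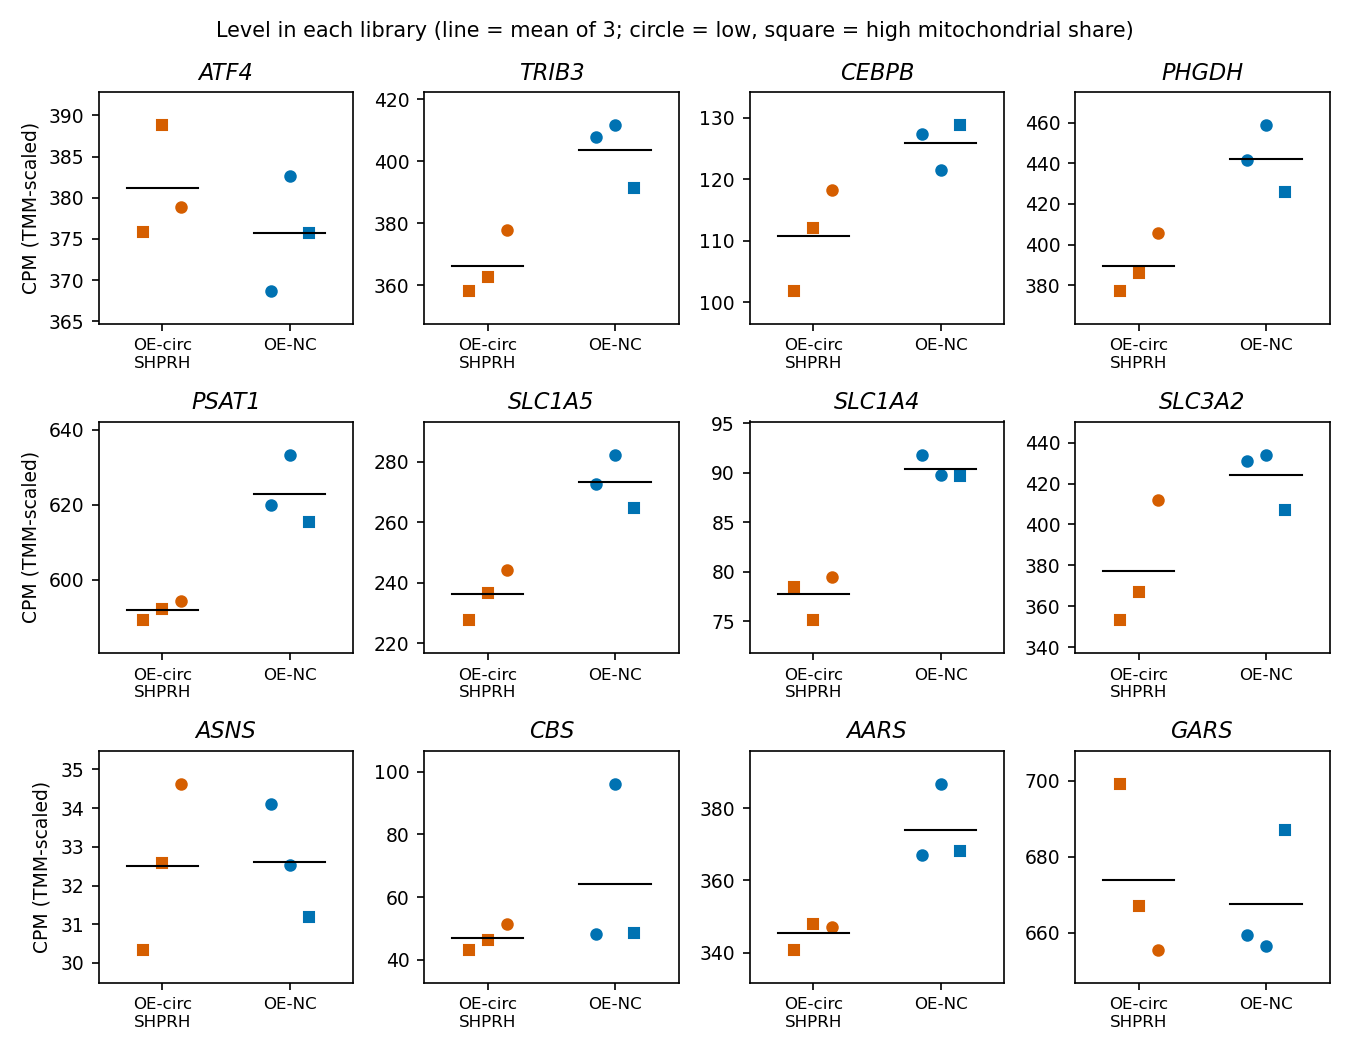
TMM-scaled CPM of 12 of the genes in each library, OE-circSHPRH left of OE-NC (lines are means of 3 libraries, circles low-share and squares high-share libraries, and each panel has its own axis that does not start at 0). PHGDH, SLC1A5 and SLC1A4 separate the groups without overlap, ATF4, ASNS and GARS do not, and CBS differs through 1 OE-NC library at 96.0 CPM.

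Serine and one-carbon genes were 5 of 6 on the lower side, with a median of -0.07. PHGDH (chromosome 1, 119648411 to 119744226, plus strand), which encodes the first enzyme of serine synthesis, had 377, 386 and 405 CPM in OE-circSHPRH, against 441, 459 and 426 CPM in OE-NC. The groups did not overlap, and the level was 11.9% lower (log2 fold change -0.18, SE 0.043, edgeR adjusted p = 0.0999). SHMT2, which encodes the mitochondrial enzyme that splits serine for one-carbon units, had 190, 204 and 200 CPM in OE-circSHPRH and 222, 222 and 212 CPM in OE-NC, without overlap (log2 fold change -0.14, SE 0.043, adjusted p = 0.219 by edgeR). PSAT1, the second step of serine synthesis, had 589, 592 and 594 CPM in OE-circSHPRH and 620, 633 and 615 CPM in OE-NC.

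The PSAT1 libraries of each group lay close together and did not overlap, at a difference of 4.96% (log2 fold change -0.07, SE 0.038, edgeR adjusted p = 0.526). MTHFD2 was at -0.07 (SE 0.039) and PSPH, the last step of serine synthesis, at -0.03 (SE 0.043). ALDH1L2, a mitochondrial folate enzyme, was at 0.02 (SE 0.056). The ratio of PHGDH to PSAT1 counts within a library, chosen after the values were seen, was lower by 0.11 on the log2 scale, with a mean of -0.60 ± 0.047 in OE-circSHPRH and -0.50 ± 0.034 in OE-NC (SD, n = 3 each). It gave p = 0.1 in an exact two-sided permutation test, the smallest p that 3 against 3 libraries allow, and 0.2 after adjustment over 3 ratios.

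The amino acid transporters held the members with the smallest p-values. SLC1A5 (chromosome 19, 46774883 to 46788594, minus strand), which encodes the glutamine importer ASCT2, had 228, 237 and 244 CPM in OE-circSHPRH, against 273, 282 and 265 CPM in OE-NC. No library overlapped, and the mean was 236 ± 8.35 CPM in OE-circSHPRH and 273 ± 8.88 CPM in OE-NC (SD, n = 3 each), or 13.5% lower. Its log2 fold change was -0.21 (SE 0.043) with an edgeR adjusted p = 0.0537, which was 0.0025 to 0.342 with each library left out in turn. SLC1A4 (chromosome 2, 64988477 to 65023865, plus strand), a related carrier of serine, alanine and cysteine, had 78.5, 75.1 and 79.5 CPM in OE-circSHPRH, against 91.8, 89.7 and 89.7 CPM in OE-NC. It was 14.0% lower without overlap (log2 fold change -0.22, SE 0.050, edgeR adjusted p = 0.0972).

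SLC3A2 encodes the heavy chain CD98, which carries SLC7A5 or SLC7A11 to the cell surface. It had 353, 367 and 412 CPM in OE-circSHPRH and 431, 434 and 407 CPM in OE-NC. OE-circSHPRH replicate 3 lay above OE-NC replicate 3, so the groups overlapped (log2 fold change -0.17, SE 0.051, edgeR adjusted p = 0.206). SLC7A5, its partner for leucine and other large neutral amino acids, had 630, 642 and 646 CPM in OE-circSHPRH and 654, 665 and 651 CPM in OE-NC. The groups did not overlap but lay within 2.72% on average (log2 fold change -0.04, 95% interval -0.12 to 0.04). SLC7A11, its partner for cystine import, had 156, 162 and 160 CPM in OE-circSHPRH and 154, 144 and 160 CPM in OE-NC, with overlap (log2 fold change 0.07, 95% interval -0.03 to 0.17).

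The within-library log2 ratios of SLC3A2 to these partners, also chosen after the values were seen, overlapped between the groups. For SLC7A5 the mean was -0.76 ± 0.10 in OE-circSHPRH and -0.63 ± 0.041 in OE-NC (SD, n = 3 each, exact two-sided permutation p = 0.2, and 0.2 after adjustment over 3 ratios). For SLC7A11 it was 1.24 ± 0.105 in OE-circSHPRH and 1.48 ± 0.123 in OE-NC (SD, n = 3 each, exact two-sided permutation p = 0.2, and 0.2 after adjustment). The cationic amino acid carrier gene SLC7A1 was at -0.08 (SE 0.038) without overlap, and SLC38A2, a sodium-coupled carrier of small neutral amino acids, was at 0.0074 (SE 0.040).

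Among the other amino acid enzymes, CTH, which encodes cystathionine gamma-lyase, had 36.8, 40.1 and 37.8 CPM in OE-circSHPRH and 40.9, 45.8 and 43.6 CPM in OE-NC. The groups did not overlap (log2 fold change -0.19, SE 0.066, edgeR adjusted p = 0.304). CBS, which encodes the enzyme one step before it in the making of cysteine from homocysteine, had 43.3, 46.3 and 51.4 CPM in OE-circSHPRH and 48.4, 96.0 and 48.6 CPM in OE-NC. A single library, OE-NC replicate 2, was high and the groups overlapped. Its log2 fold change, -0.46 (SE 0.17, adjusted p = 0.341 by edgeR), was -0.05 without that library, and -0.28 with the CBSL reads added to CBS.

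ASNS had 30.3, 32.6 and 34.6 CPM in OE-circSHPRH and 34.1, 32.5 and 31.2 CPM in OE-NC. The groups overlapped fully, with a log2 fold change of -0.0034 (95% interval -0.16 to 0.15), and of -0.04 with the ASNSP1 reads added. The genes of proline synthesis were at -0.09 (SE 0.047) for ALDH18A1, without overlap, and at -0.05 (SE 0.046) for PYCR1, with overlap. STC2, a secreted glycoprotein induced by ATF4, had 205, 210 and 219 CPM in OE-circSHPRH and 228, 236 and 226 CPM in OE-NC, without overlap (log2 fold change -0.12, SE 0.043, edgeR adjusted p = 0.289). VLDLR, a lipoprotein receptor, was at -0.02 (SE 0.074).

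The 10 tRNA synthetase genes lay closest to 0, with a median of -0.03 and 6 of 10 negative, and 2 of them were lower at an unadjusted p under 0.05. AARS, which charges alanine tRNA, had 341, 348 and 347 CPM in OE-circSHPRH, against 367, 387 and 368 CPM in OE-NC. The groups did not overlap (log2 fold change -0.12, SE 0.040, edgeR adjusted p = 0.289). YARS, for tyrosine, was at -0.09 (SE 0.039), also without overlap. GARS, for glycine, had 699, 667 and 655 CPM in OE-circSHPRH and 659, 657 and 687 CPM in OE-NC.

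The GARS groups overlapped, and its log2 fold change was 0.01 (95% interval -0.07 to 0.10). WARS, for tryptophan, had 375, 342 and 326 CPM in OE-circSHPRH and 360, 351 and 376 CPM in OE-NC, with overlap (log2 fold change -0.06, 95% interval -0.16 to 0.04). MARS, IARS and SARS were between -0.05 and -0.03. EPRS (0.00020), LARS (0.0093) and NARS (0.01) lay close to 0, and these 3 and GARS took the opposite sign in some of the other fits. The 6 genes whose promoter stretches are shown above, picked as examples, covered part of the range of the 39 genes, which was -0.46 to 0.07. They ran from SLC1A5 at -0.21 and AARS at -0.12, through CHAC1 at -0.10 and CEBPG at -0.08, to ASNS at -0.0034 and GARS at 0.01.

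The mitochondrial share of counts differed between libraries within both groups, so each gene was also compared separately inside each of these library classes. The classes were not balanced, since replicates 1 and 2 of OE-circSHPRH but only replicate 3 of OE-NC were high-share. Class and group were thus partly confounded. The classes were chosen with earlier results of these data known. Values by class, and p-values from fits with class as a term, therefore do not come from a split set in advance. The median difference of mean log2 CPM over the 39 genes was -0.08 among low-share and -0.06 among high-share libraries. In 30 members (76.9%) the difference was negative in both, against 28.6% of all genes, and in 2 members, ATF4 and ASNS, it was positive in both, against 28.8%. Each class compares a single library with 2 of the other group. The classes reuse the same 6 libraries. The 18 members with every OE-circSHPRH library below every OE-NC library (7.57% of all genes) are therefore negative in both by construction. The count by class is not a separate result. The stress regulators had medians of -0.07 among low-share and -0.11 among high-share libraries, and the transporters -0.07 among low-share and -0.08 among high-share libraries. The synthetases had -0.08 among low-share and -0.01 among high-share libraries. Set against the mean of the 6 libraries, the synthetase median was 0.04 in OE-circSHPRH replicate 1 and -0.06 in OE-circSHPRH replicate 3.

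With library class as a term in the edgeR fit, SLC1A5, PHGDH and SLC1A4 were called lower (adjusted p = 0.0079, 0.0215 and 0.0320), where 1.04% of all genes were called. In that fit 19 members (48.7%) were lower at an unadjusted p under 0.05, where 5.57% of all genes were, and 0 were higher. Without OE-circSHPRH replicate 3, which leaves only high-share libraries in that group, 6 members passed (these 3 with SLC3A2, CEBPB and TRIB3), where 1.85% of all genes did.

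**Figure D4:**
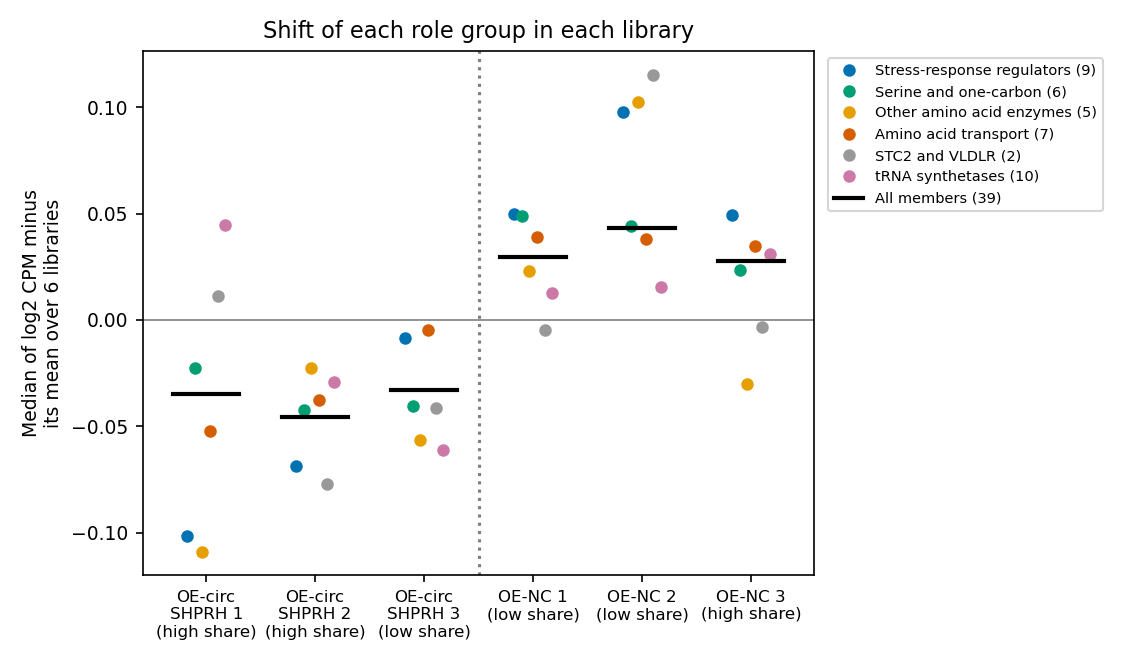
Median over the genes of each role group of log2 CPM minus its mean over the 6 libraries, by library, with OE-circSHPRH left of OE-NC (coloured points are role groups with their number of genes, black bars all 39 genes). The black bars lie below 0 in all 3 OE-circSHPRH libraries and above 0 in all 3 OE-NC libraries, while the synthetases lie 0.04 above 0 in OE-circSHPRH replicate 1.

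**Figure D5:**
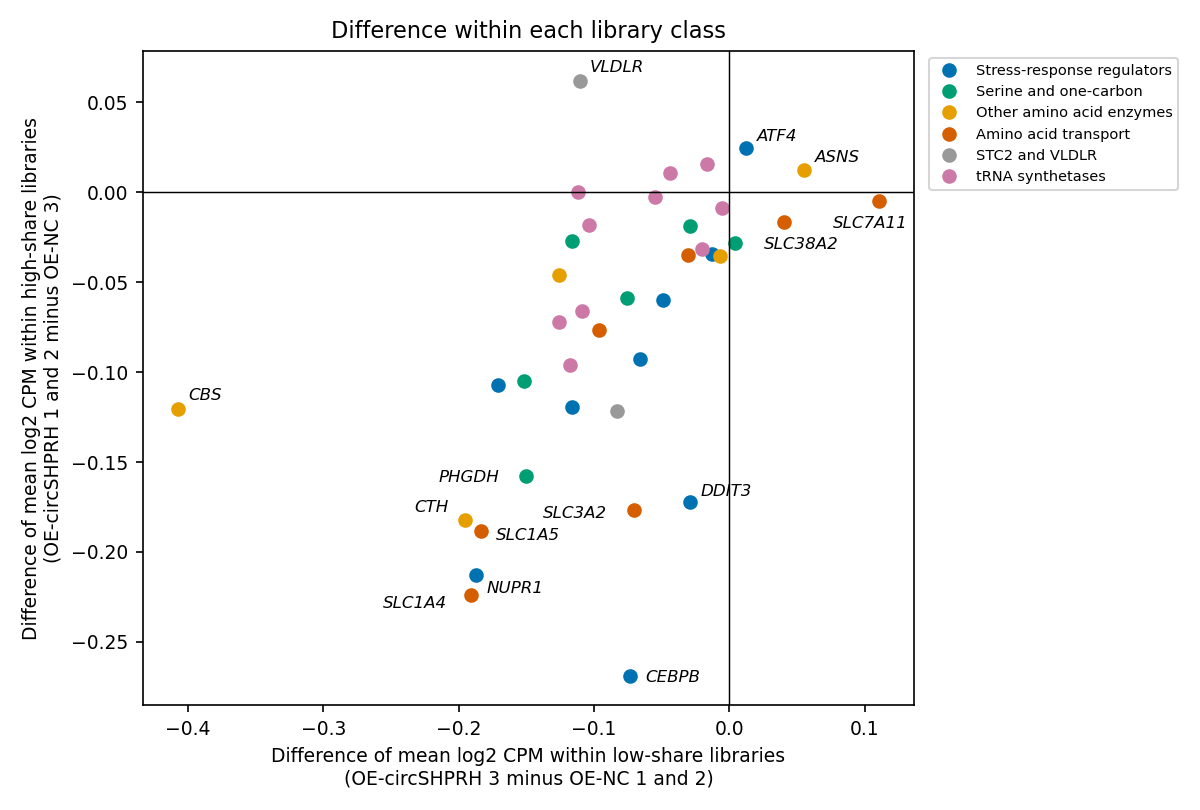
Difference of mean log2 CPM, OE-circSHPRH minus OE-NC, within the low-share libraries (horizontal axis) and within the high-share libraries (vertical axis), 1 point per gene, coloured by role. Low-share libraries are OE-circSHPRH replicate 3 and OE-NC replicates 1 and 2. Of the 39 points, 30 lie in the lower left, where both differences are negative, and ATF4 and ASNS lie in the upper right.

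Other genes of the pathway are given by the same counts, where 5.02% of all genes were lower and 5.33% higher at an unadjusted p under 0.05, and where passing means an edgeR adjusted p under 0.05 over all genes. Of 17 genes of eIF2 signalling upstream of ATF4, 0 passed, and 1 was lower and 0 higher at an unadjusted p under 0.05, with a median of 0.00069. GCN1, which activates the amino acid sensing kinase, was at -0.10 (SE 0.041), EIF2S3, a subunit of eIF2, at 0.09 (SE 0.043), and EIF2AK4, which encodes that kinase, GCN2, at 0.11 (SE 0.054). Of 14 other cytosolic synthetases and their scaffold proteins, 0 passed, and 3 were lower and 0 higher at that p: VARS (-0.15, SE 0.040), FARSA (-0.14, SE 0.045) and the scaffold gene AIMP2 (-0.15, SE 0.055). VARS was also called lower by DESeq2 (adjusted p = 0.0343) and by edgeR with library class as a term (adjusted p = 0.0394). The median of the 14 was 0.0099. Of 17 mitochondrial synthetases, 0 passed, 1 was lower and 2 were higher at that p, and the median was -0.0041, with MARS2 at -0.26 (SE 0.10), WARS2 at 0.29 (SE 0.12) and TARS2 at 0.14 (SE 0.063).

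Of 23 further genes that ATF4 can induce, 0 passed in edgeR, 4 were lower and 3 higher at an unadjusted p under 0.05, and the median was -0.03. GDF15, a stress cytokine that p53 also induces, was the one with the smallest p, at 313, 332 and 328 CPM in OE-circSHPRH, against 285, 301 and 271 CPM in OE-NC. Its groups did not overlap (log2 fold change 0.18, SE 0.045, edgeR adjusted p = 0.116). DESeq2 called it higher (adjusted p = 0.0192), as did edgeR with library class as a term (adjusted p = 0.0045). GPT2, which encodes a mitochondrial alanine aminotransferase, was at -0.12 (SE 0.041) and the damage and stress gene GADD45A at 0.17 (SE 0.064), which was called higher with library class as a term (edgeR adjusted p = 0.0226). Of 14 further one-carbon genes, 0 passed (0 by DESeq2 and 1 with library class as a term), and 3 were lower and 0 higher at that p, among them MTHFD2L (-0.29, SE 0.10) and MTHFD1 (-0.14, SE 0.052), with a median of -0.04.

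Of 11 other amino acid transporters tested, 0 passed, 0 were lower and 1 was higher at an unadjusted p under 0.05, and the median was 0.05. That gene was SLC7A8 (0.70, SE 0.31), at a low 2.23 CPM in OE-circSHPRH and 1.36 CPM in OE-NC. SLC7A2 was at 0.08 (SE 0.053) and SLC43A2 at -0.09 (SE 0.065). Of 12 genes of amino acid sensing by mTORC1, 0 passed and 0 were at that p in either direction, with a median of 0.0051. CASTOR2 was at -0.48 (SE 0.30), RPTOR at -0.07 (SE 0.050) and RRAGA at 0.08 (SE 0.060).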

How the data were processed

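The authors deposited 1 table with raw read counts per gene and library, a signal equal to the counts divided by one size factor per library, FPKM values, and for each gene their own log2 fold change with its p-value, raw and adjusted. The size factors follow from the deposited values, in which count over signal is constant within a library. Per the labels' protocols, TRIzol was used for extraction and a SMARTER mRNA-Seq kit for the libraries. No source used here gives the aligner, the counting tool or the use of strand. GRCh37 is named in the submitters' processing notes, but 28733 of 28752 deposited gene positions equal those of GENCODE 29 on GRCh38, so positions are given on GRCh38.

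Counts were filtered with filterByExpr (minimum count 10, minimum total 15), which left 16458 genes, scaled by TMM and tested with edgeR 4.0.16 (quasi-likelihood, group only, two-sided, Benjamini-Hochberg at 0.05). Common dispersion was 0.00287. The SE is the absolute log2 fold change over the square root of F, and intervals are 95%. CPM values are TMM-scaled. DESeq2 1.42.0 and limma 3.58.1 (voom) were alternatives, as were other scalings, other filters, a replicate block, library class as a term and leaving out each library. Within-class differences use log2 CPM with a prior count of 2. The code was tested on simulated counts.

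The genes of the programme, the lists and the library classes were chosen with earlier results of these data known. Values in every library are given for 12 genes listed by name and the 12 members with the smallest p, and the 3 genes with the smallest p are named in each context list, except 1 gene that is not reported here.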

Additional observations from a re-analysis of the deposited data

How the results depend on the processing

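Of the 39 members, 30 kept the sign of their log2 fold change in all 15 alternative fits. With library totals alone the median of the members was -0.088, and within the high-share libraries -0.059. Members called numbered 0 in the reported fit, 5 without a filter on low counts, 3 by DESeq2, 1 by limma-voom and 3 with library class as a term. Genes called numbered 31 in the reported fit, 194 without a filter, 77 by DESeq2 and 171 with library class as a term. Same-numbered libraries did not deviate together (Pearson r -0.044, -0.027 and -0.11 across genes), so replicate numbers were not taken as pairs. A replicate block gave 6 genes called and 0 members, and changed the sign of EPRS (-0.00030) and of no other member. With each library left out, genes called ran from 5 (without OE-circSHPRH replicate 2) to 311 (without OE-circSHPRH replicate 3), and were also under 20 without OE-NC replicate 1 (6), 2 (11) or 3 (19). Members called ran from 0 to 6 and the median from -0.089 to -0.061. The cause of these differences was not tested.

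Members near 0 changed sign. With library totals alone SLC38A2 was at -0.0072, GARS at -0.0015, NARS at -0.0025, LARS at -0.0058 and EPRS at -0.015. With library class as a term ALDH1L2 was at -0.010, ASNS at 0.034, GARS at -0.0068, NARS at -0.00015, LARS at -0.016 and EPRS at -0.029. EPRS was also at -0.00035 with DESeq2 size factors, -0.00052 with the CPM filter, -0.00060 by DESeq2 and -0.00095 by limma-voom. With each library left out the ranges were -0.091 to 0.018 for PPP1R15A, -0.039 to 0.066 for ALDH1L2, -0.051 to 0.044 for ASNS, -0.0072 to 0.034 for SLC38A2, -0.093 to 0.044 for VLDLR, -0.015 to 0.033 for GARS, -0.011 to 0.031 for NARS, -0.021 to 0.037 for EPRS and -0.035 to 0.043 for LARS. Adding the reads of CBSL and ASNSP1, an alternative chosen after seeing the data, called 0 members.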

Other observations

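CBSL, the near-identical copy of CBS, had 23.2, 21.4 and 39.7 CPM in OE-circSHPRH and 27.6, 27.3 and 25.5 CPM in OE-NC. OE-circSHPRH replicate 3 was the high library for CBSL, whereas OE-NC replicate 2 was the high library for CBS. The other libraries ran from 43.3 to 51.4 CPM for CBS and from 21.4 to 27.6 CPM for CBSL. For CBSL, OE-circSHPRH replicates 1 and 2 lay below every OE-NC library. Both genes were chosen for this description after their values were seen.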
